A study of Mus musculus with 5 samples.

Results

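Complex I of the respiratory chain was examined in cancer cells growing in mouse lungs, through the genes whose symbol starts with Nduf. Of the 23771 genes listed for the cancer cells of day 16, 47 carried such a symbol. By known function, 7 of them code for core subunits, 30 for accessory subunits and 8 for assembly factors (Ndufaf), and the remaining pair, Ndufa4 and Ndufa4l2, is assigned to complex IV. The cells came from single-cell RNA sequencing of whole lungs in which 4T1 cells, a mouse mammary carcinoma line, had formed metastases, in BALB/c females aged 11 weeks at collection. Before the cancer cells were given, the CM group received control medium and the TSF group tumor-secreted factors, the supernatant of cut primary tumors kept in culture medium, as intravenous injections of 200 µL, 3 per week for 3 weeks. Both groups then received 25000 4T1 cells expressing CD90.1, a Thy1 variant carried by a lentiviral vector, and lungs were taken on day 16. Each group had 1 library, made from the pooled lungs of 3 mice, so no test between the groups was possible, no p-value is given, and a difference between libraries cannot be told apart from one between treatments.

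Complex I (NADH:ubiquinone oxidoreductase) takes electrons from NADH, passes them through a flavin and iron-sulfur clusters to ubiquinone, and pumps protons across the inner mitochondrial membrane. Core subunits carry out this chemistry. They are conserved from bacteria, and some are encoded in the nucleus and others, the mt-Nd genes, in mitochondrial DNA. Accessory subunits surround the core and are needed for its stability, and assembly factors help to build the enzyme but are not part of the finished complex. In cancer cells the regeneration of NAD+ by complex I is known to feed aspartate synthesis.

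Upstream sequence is shown for the members called higher whose 250 bases before the RefSeq start overlapped no annotated exon, which were Ndufb2 and Ndufb6, and for Ndufaf4, the assembly factor with the lowest difference. These bases lie at chr6:39592315-39592564 (plus strand) for Ndufb2, chr4:40279422-40279671 (minus strand) for Ndufb6 and chr4:24897833-24898082 (plus strand) for Ndufaf4, on GRCm38.p6, and are written 5′ to 3′ as RefSeq gives them. Capitals mark matches, on either strand, to the NRF1 motif GCATGCGC, the ETS motif CCGGAAG, the YY1 motif AAGATGGCG or the GC box GGGCGG.
Ndufb2: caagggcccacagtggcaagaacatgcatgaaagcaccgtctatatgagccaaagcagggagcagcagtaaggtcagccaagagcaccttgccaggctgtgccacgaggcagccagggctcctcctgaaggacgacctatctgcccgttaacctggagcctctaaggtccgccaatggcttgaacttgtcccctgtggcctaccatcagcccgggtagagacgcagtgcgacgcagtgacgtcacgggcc
Ndufb6: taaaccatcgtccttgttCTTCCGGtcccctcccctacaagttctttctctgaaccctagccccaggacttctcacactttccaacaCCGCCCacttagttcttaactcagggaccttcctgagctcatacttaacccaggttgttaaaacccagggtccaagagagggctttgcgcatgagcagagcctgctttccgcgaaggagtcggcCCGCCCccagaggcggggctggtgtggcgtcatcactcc
Ndufaf4: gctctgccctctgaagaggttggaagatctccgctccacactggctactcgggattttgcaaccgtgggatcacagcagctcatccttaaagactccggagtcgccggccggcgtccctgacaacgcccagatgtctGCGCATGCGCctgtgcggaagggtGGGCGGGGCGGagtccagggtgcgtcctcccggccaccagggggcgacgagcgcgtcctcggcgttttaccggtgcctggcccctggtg
Ndufb2 held none of the motifs set in capitals, although CCAAT, which was not set in capitals, occurs in its bases. Ndufb6 held an ETS match and GC boxes. Ndufaf4 held an NRF1 match, a palindrome read on both strands, and overlapping GC boxes. RefSeq windows of 250 bases before to 50 after the start were available for 40 members and not for the other 7, among them Ndufb9. NRF1 was matched in 12.5% of them, against 2.81% of the windows of all genes and 6.17% of those of the genes tested here. YY1 was matched in 15.0% of member windows, against 1.49% of all windows and 3.80% of those of tested genes. For ETS the shares were 15.0%, 9.12% and 20.9%, and for the GC box 52.5%, 35.9% and 68.3%. The CCAAT box was in 35.0% of member windows, 37.9% of all windows and 39.2% of those of tested genes. For the E-box CACGTG the shares were 5.00%, 7.24% and 10.9%. A match describes letters only.

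The CM library held 29 cancer cells and the TSF library 139, as classified by the authors. Median depth was 27679 UMIs per cancer cell in CM and 26615 in TSF, but 27.6% of the CM cells and 10.1% of the TSF cells had fewer than 10000 UMIs. No cell barcode was shared between the cancer cells of the libraries. Krt8 and Krt18, keratins of simple epithelia, stood at 10.3 and 18.3 CP10k (UMIs per 10000 UMIs of a cell, averaged over cells by the authors) in CM and at 11.1 and 15.8 in TSF. The other carcinoma markers were higher in TSF. Epcam, an epithelial adhesion molecule, was at 0.195 and 1.28 CP10k and had a UMI in 8 of 29 CM cells and 95 of 139 TSF cells. CD90.1 was at 0.0343 and 0.235, in 2 of 29 and 48 of 139 cells, and Krt14, a basal keratin, at 0 and 0.116. The summed level of 8 leukocyte markers was 0.00958 CP10k in CM, with 7 of the 8 at 0, and 1.06 in TSF, with 1 at 0, of which S100a9 gave 0.685 in 4 cells. Per the study's methods, cancer cells were identified from CD90.1 expression and no doublets were removed from them, and doublets were not called here. Fibroblast markers (4 genes) summed to 0.498 and 1.02, endothelial markers (4 genes) to 0.0588 and 0.186, and lung epithelial markers (4 genes) to 0.113 and 0.0658. Ribosomal protein genes took 19.3% of the CP10k in CM and 24.7% in TSF. The part of these differences in the results was not tested.

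The summed level of the Nduf genes was higher in the TSF library. For the 47 members it was 68.4 CP10k in CM and 95.2 in TSF, a ratio of 1.39. This sum includes Ndufa4 and Ndufa4l2, which are assigned to complex IV. It leaves out the mt-Nd core subunits of complex I, whose sum was 61.4 CP10k in CM and 54.0 in TSF. The nuclear core subunits had a ratio of 1.01 and the accessory subunits of 1.45. Differences of single genes are given as log2((TSF CP10k + 1)/(CM CP10k + 1)), which understates the change of low genes, and a gene was called higher or lower at 0.25 or more on that scale if it had a UMI in 10% or more of the cancer cells in CM or in TSF. Of the 46 members that passed this minimum, 17 were higher in TSF (37.0%), against 5.03% of the 10201 genes tested. Only Ndufs1 was lower (2.17%), against 11.5% of all genes. Of the 46, 39 lay above 0 (84.8%), against 40.3% of all genes, and the median difference was 0.20, against -0.03 over all genes. A UMI in the shallowest CM cell alone moves the CM mean by 0.354 CP10k. The levels of 22 members differed by more than that, and all 22 were higher in TSF. Of all genes tested, 5.2% were higher and 8.82% lower by more than this amount, which abundant genes pass more easily than rare ones.

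**Figure D1:**
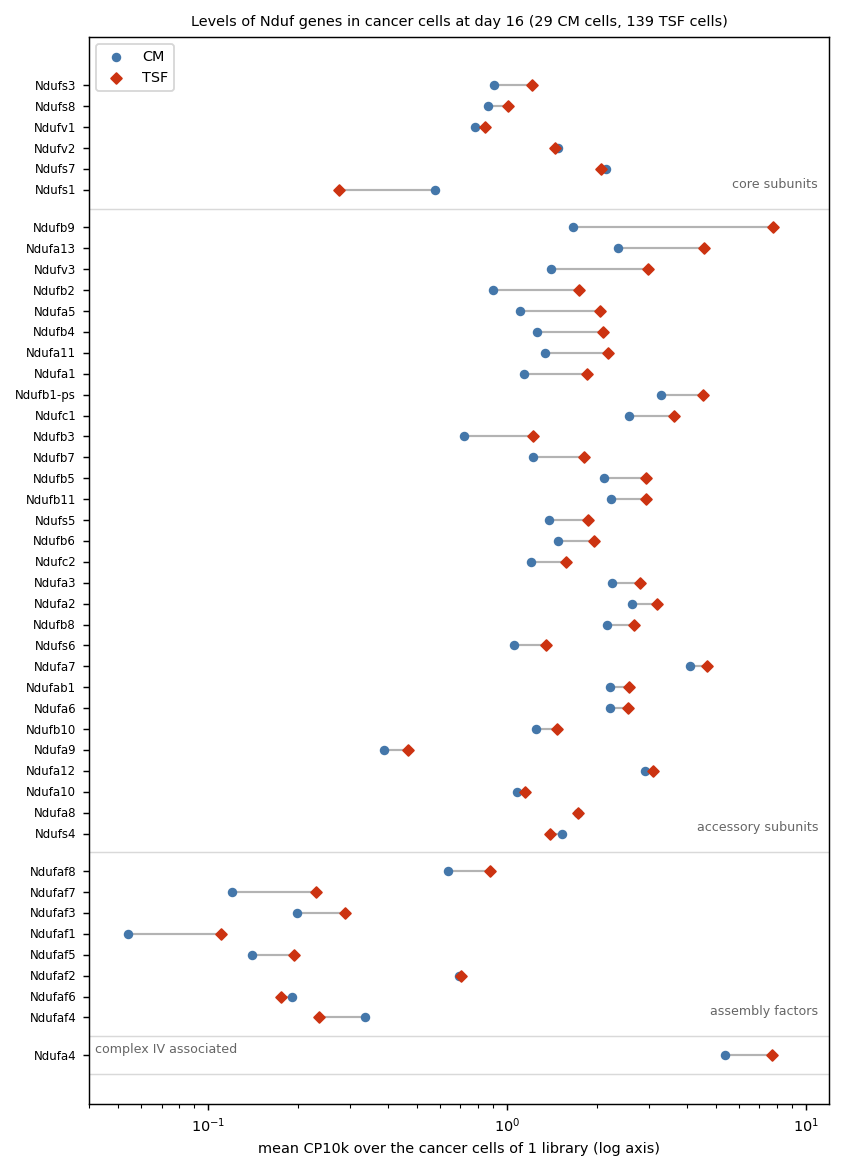
Mean CP10k (log axis) of 45 tested Nduf genes in the cancer cells of the CM library (circles, 29 cells) and the TSF library (diamonds, 139 cells), grouped by class. Each point is 1 library and has no replicate error. Ndufb9 is at 1.66 in CM and 7.76 in TSF. Ndufs1, the core subunit called lower, is at 0.575 in CM and 0.274 in TSF.

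Ndufb9, an accessory subunit of the distal membrane arm with a LYR motif fold, differed most. It lies on chromosome 15 (58933756 to 58939488, plus strand, GRCm38), and its level was 1.66 CP10k in CM and 7.76 in TSF, a ratio of 4.66 and a log2 difference of 1.72. It ranked 3 of the 10201 genes tested. It alone made up 22.8% of the summed difference of the members. A UMI of Ndufb9 was found in 23 of 29 CM cells (79.3%, exact Clopper-Pearson 95% interval 60.3 to 92.0) and in 132 of 139 TSF cells (94.96%, 89.9 to 98.0). These intervals overlap and cover counting error only. The share thus differed less than the mean. An equal level in every cell that gives these shares at the depths of the cells would be 0.912 CP10k in CM and 2.28 in TSF. Both are below the means of 1.66 and 7.76. Such a gap was not particular to Ndufb9. Ndufa4, also seen in 132 of 139 TSF cells, had the same implied level of 2.28 and a TSF mean of 7.74. Another coding gene on the same strand, Gm49356, overlaps Ndufb9, and how the counting treated reads in the overlap was not tested.

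Without Ndufb9 the members still stood above the background. The summed level of the other 46 was 66.8 CP10k in CM and 87.4 in TSF, a ratio of 1.31. Of 45 tested, 16 were called higher (35.6%) and 1 lower (2.22%), against 5.03% and 11.5% of all genes. The median difference was 0.19, against -0.03 over all genes. Among subunits, core and accessory together, the sum went from 60.7 in CM to 84.6 in TSF (ratio 1.39), and without Ndufb9 from 59.0 to 76.8 (ratio 1.30). After Ndufb9, the largest parts of the summed difference came from Ndufa4 (8.83%), Ndufa13 (8.27%), Ndufv3 (5.89%) and Ndufb1-ps (4.78%). These 5 genes together gave 50.5% of it.

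The difference was seen in accessory subunits. Of 30, 16 were called higher (53.3%) and 0 lower, against 5.03% and 11.5% of all genes. Of the 30, 29 lay above 0 (96.7%), against 40.3% of all genes, and the median difference was 0.26. Their summed level was 52.9 CP10k in CM and 76.7 in TSF (ratio 1.45), and without Ndufb9 it was 51.2 and 69.0 (ratio 1.35). Ndufa13, also known as GRIM-19, was at 2.35 CP10k in CM and 4.56 in TSF, a log2 difference of 0.73. Ndufv3, an accessory subunit of the NADH-oxidizing module, was at 1.40 in CM and 2.98 in TSF, also a log2 difference of 0.73. Both ranked within the top 40 of all genes tested, at 39 and 40. Ndufb2 followed with 0.897 in CM and 1.74 in TSF (log2 difference 0.53), and Ndufa5 with 1.11 and 2.04 (0.53). Ndufa13 overlaps the coding gene Yjefn3 and Ndufb2 overlaps Gm42420 on the same strand, so their reads may be shared.

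The remaining accessory subunits called higher had log2 differences from 0.45 (Ndufb4) down to 0.25 (Ndufb6). They were Ndufa11, Ndufa1, Ndufb1-ps, Ndufc1, Ndufb3, Ndufb7, Ndufb5, Ndufb11 and Ndufs5, beside those 2. Ndufb1-ps, named as a pseudogene and annotated as a noncoding gene in GENCODE, was at 3.27 CP10k in CM and 4.55 in TSF. Of the accessory subunits not called, Ndufc2, at 0.22, came nearest to the limit, and Ndufb6, at 0.25, stood just inside it. Ndufa7, which had the highest CM level of the accessory subunits, was at 4.09 in CM and 4.67 in TSF (log2 difference 0.16). Ndufa8 was level at 1.73 and 1.74. Ndufs4, which stabilizes the NADH-oxidizing module, was the accessory subunit below 0, with 1.53 in CM and 1.40 in TSF (-0.07).

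**Figure D2:**
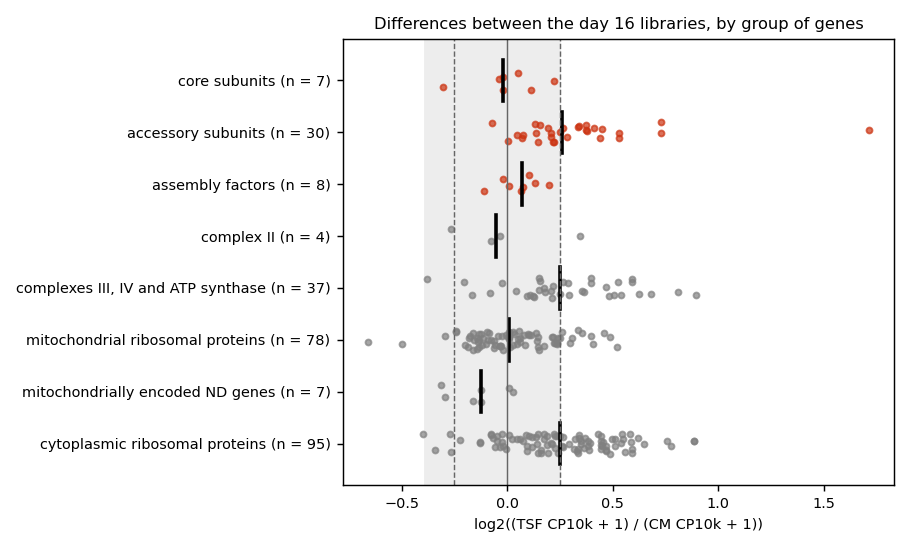
Log2 difference between TSF and CM (pseudocount of 1 CP10k) of each tested gene (points, spread vertically at random) in 3 classes of Nduf genes (red) and 5 comparison groups (grey), with black bars for medians, dashed lines at the limits of 0.25 and -0.25, and a shaded band for the 5th to 95th percentile of all genes (-0.39 to 0.25). Accessory subunits had a median of 0.26, assembly factors of 0.07 and core subunits of -0.02.

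Nuclear core subunits had nearly the same summed level in both libraries. Of 7, 0 were called higher and 1 lower (14.3%), against 5.03% and 11.5% of all genes. Of the 7, 3 lay above 0 (42.9%), against 40.3% of all genes, and the median was -0.02. The summed level was 7.80 CP10k in CM and 7.88 in TSF (ratio 1.01). Ndufs3, which lines the ubiquinone-reducing module, had the highest difference, with 0.904 in CM and 1.22 in TSF (0.22). The iron-sulfur subunit Ndufs8 was at 0.863 and 1.01 (0.11), and Ndufv1, which binds FMN and NADH, at 0.785 and 0.848 (0.05). Ndufv2 was at 1.49 in CM and 1.45 in TSF (-0.02). Ndufs7, which carries the last iron-sulfur cluster of the chain, was at 2.14 and 2.06 (-0.04).

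Ndufs1, the largest subunit and the carrier of several iron-sulfur clusters, was the member called lower, at 0.575 CP10k in CM and 0.274 in TSF, a ratio of 0.477 and a log2 difference of -0.31. A UMI of it was found in 20 of 29 CM cells (69.0%, interval 49.2 to 84.7) and in 72 of 139 TSF cells (51.8%, 43.2 to 60.3). The intervals overlap, and the means lie closer together than what 1 UMI in the shallowest CM cell contributes to the CM mean.

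Assembly factors were low in both libraries and none of the 8 was called, against 5.03% of all genes higher and 11.5% lower. Their summed level was 2.37 CP10k in CM and 2.81 in TSF (ratio 1.19), 6 of 8 lay above 0, and the median log2 difference was 0.07. The median of their plain ratios, 1.38, was larger, since a pseudocount of 1 exceeds every one of these levels. Ndufaf8 was at 0.636 in CM and 0.876 in TSF (log2 difference 0.20) and Ndufaf2, an assembly factor paralogous to Ndufa12, at 0.692 and 0.702 (0.01). Ndufaf7, an arginine methyltransferase, was at 0.121 and 0.230 (0.13), with a UMI in 7 of 29 CM cells and 61 of 139 TSF cells. Ndufaf3 was at 0.199 and 0.287 (0.10), Ndufaf1 at 0.0540 and 0.110 (0.08), and Ndufaf5, which hydroxylates Ndufs7, at 0.140 and 0.194 (0.07). For Ndufaf5 the share of cells went the other way, with 34.5% in CM and 24.5% in TSF. Ndufaf6 was at 0.191 and 0.176 (-0.02), and Ndufaf4 at 0.335 and 0.235 (-0.11). At these levels a difference between the classes could not be shown, because the pseudocount compresses the assembly factors more than the subunits.

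Ndufa4, first described in complex I and now assigned to complex IV, had the highest CM level of all members, 5.38 CP10k, and 7.74 in TSF (log2 difference 0.45). Its relative Ndufa4l2 had a UMI in 0 of 29 CM cells, for which a limit of 3 counts gives a share of cells with a UMI of 10.3% and the exact interval an upper end of 11.9%, and in 1 of 139 TSF cells, and it was the member not tested.

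Among nuclear subunits, those of the membrane arm differed more than those of the matrix arm. Each subunit was assigned to 1 arm only, and Ndufa9 and Ndufab1 were counted in the membrane arm. All 22 nuclear subunits assigned to the membrane arm lay above 0, and 14 were called higher. Their median was 0.31, and their sums were 36.0 CP10k in CM and 55.5 in TSF (ratio 1.54). In the matrix arm 2 of 15 were higher and 1 lower, with a median of 0.11 and sums of 24.7 and 29.1 (ratio 1.18). Among all genes tested, 5.03% were higher and 11.5% lower. The distal membrane arm, which holds Ndufb9, had 9 of 12 higher and a ratio of 1.64, and without Ndufb9 8 of 11 and 1.38, with the median at 0.34 in both cases. The proximal membrane arm had 5 of 10 higher (ratio 1.41). In the NADH-oxidizing module 1 of 10 was higher and 1 lower (ratio 1.17), and in the ubiquinone-reducing module 1 of 5 was higher (ratio 1.21). All 7 nuclear core subunits belong to the matrix arm. Without them, the NADH-oxidizing module had 1 of 7 higher, with a median of 0.16 and a ratio of 1.22. The ubiquinone-reducing module then held only Ndufa5, which was called higher (0.53). The core subunits of the membrane arm are the mt-Nd genes, which these sums leave out. Their own sum was 61.4 CP10k in CM and 54.0 in TSF.

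For the core subunits encoded in mitochondrial DNA, mean levels and shares of cells went different ways. Of 7 mt-Nd genes 0 were called higher and 2 lower (28.6%), against 5.03% and 11.5% of all genes. The median was -0.13, and the sum was 61.4 CP10k in CM and 54.0 in TSF (ratio 0.880). The lower genes were mt-Nd4l (21.1 and 17.0) and mt-Nd5 (3.80 and 2.86). The share of cells with a UMI was higher in TSF for 6 of the 7, with a median difference of 6.03 percentage points, and the level implied by the share was higher by the same limit for 5, with a median log2 difference of 0.44. Median mitochondrial content was 1.72% of UMIs in CM and 1.99% in TSF. Of assembly factors with other names, 9 were tested, with 0 higher and 1 lower and a median of -0.00. The lower gene was Tmem126b, part of the assembly complex for the membrane arm, at 0.364 CP10k in CM and 0.0897 in TSF, and the CM value rested on 2 cells.

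Other nuclear gene groups of mitochondria and ribosomes are given for comparison. Over all genes tested, 5.03% were higher and 11.5% lower, with a median of -0.03. Subunits of complexes III and IV and ATP synthase had 18 of 37 higher and 1 lower, with a median of 0.25 and a ratio of sums of 1.33. Complex II had 1 of 4 higher (Sdhd) and 1 lower (Sdha), with a median of -0.06 and a ratio of 0.995. Mitochondrial ribosomal proteins had 11 of 78 higher and 3 lower, with a median of 0.01 and a ratio of 1.07. Cytoplasmic ribosomal proteins had 47 of 95 higher and 4 lower, with a median of 0.25 and a ratio of 1.28. The Nduf members had a median of 0.20 and a ratio of 1.39. They lay close to the values of complexes III to ATP synthase and of cytoplasmic ribosomal proteins. No test set them apart from these groups.

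Shares of cells with a UMI pointed the same way but less clearly. The share was higher in TSF for 40 of the 46 members, with a median difference of 5.84 percentage points, against 49.1% of all genes and a median of -0.15 points. For 0 members did the exact intervals of the CM and TSF shares lie apart, against 1.14% of all genes apart with the higher share in TSF and 1.51% with the lower. For subunits present in nearly every cell the share is close to its ceiling. A larger share of CM than of TSF cells was shallow, shares were not brought to equal depth, and background shares, from cells known not to use a gene, were not analysed here.

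**Figure D3:**
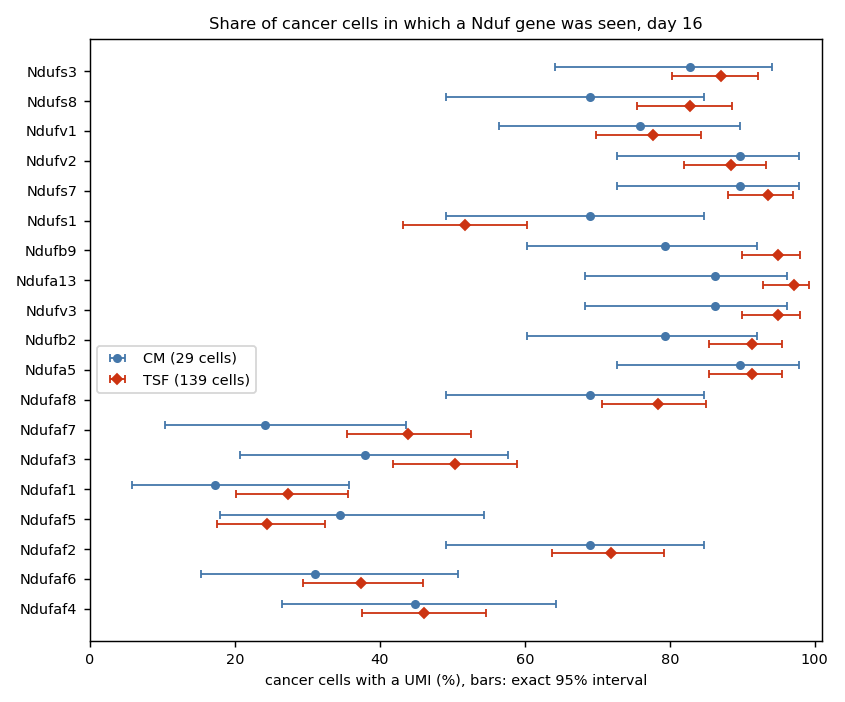
Percent of cancer cells with a UMI in CM (circles, 29 cells) and TSF (diamonds, 139 cells) for 6 core subunits, the 5 highest members and the assembly factors, with exact 95% Clopper-Pearson intervals as bars, which cover counting error only. The bars of CM and TSF overlap for every gene shown, and Ndufs1 (69.0% and 51.8%), Ndufaf5 (34.5% and 24.5%) and Ndufv2 have the lower share in TSF.

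Nduf transcripts are short, and short transcripts were higher in TSF in general. Of 626 genes whose longest coding transcript has at most 1000 bases, 24.4% were called higher, and among them 12 of 23 members. Outside the ribosomal proteins of cytoplasm and mitochondria it was 21.4% of 551 genes. From 1000 to 2000 bases the share was 7.27% of 2077 genes, and 4 of 16 members. From 2000 to 4000 bases it was 2.93% of 4034 genes, with 0 of 6 members. Above 4000 bases it was 2.57% of 3458 genes, and Ndufb2 was the member there. Spearman's correlation of length and log2 difference was -0.37 over the 46 members and -0.12 over 10195 genes, given as a description, since all genes share the same libraries. With the APPRIS principal transcript as the measure of length it was -0.40 and -0.12, and in the shortest bin 12 of 24 members and 23.3% of 713 genes were higher. Core subunits had a median length of 1623 bases, accessory subunits of 868 and assembly factors of 1322. The classes thus differed in length as well. The median over all tested genes was 3069 bases. The part of length in the difference was not tested.

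**Figure D4:**
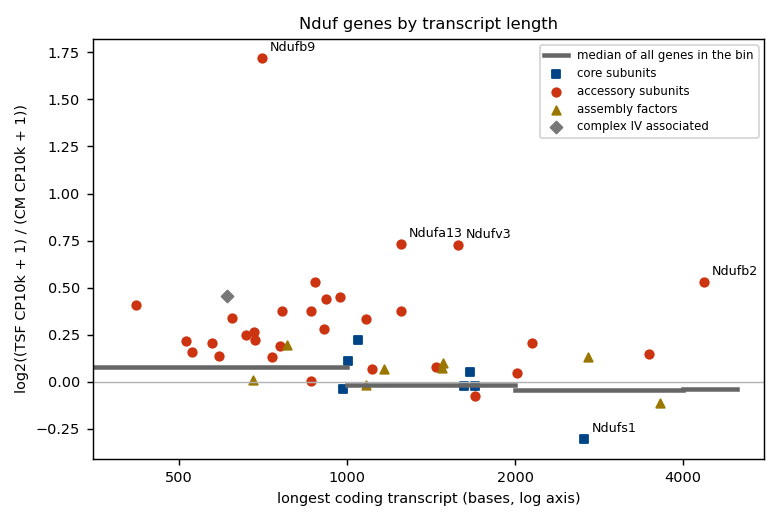
Log2 difference between TSF and CM (pseudocount of 1 CP10k) against the length of the longest coding transcript (bases, log axis) for the tested Nduf genes, with grey bars for the median of all genes in each length bin. The median of all genes was 0.08 up to 1000 bases and -0.04 above 2000 bases, and Ndufb9 lies far above the other members of its length.

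The genes around Ndufb9 had smaller differences, as nearly any genes would, since Ndufb9 ranked 3 of the 10201 tested. Of 19 genes starting within 500 kb, 12 were listed and 8 tested, with a median of 0.07. Of the 8, 2 were higher and 0 lower, against 5.03% and 11.5% of all genes. Tatdn1, which starts next to Ndufb9 on the opposite strand, was at 0.183 CP10k in CM and 0.476 in TSF (log2 difference 0.32), and Mtss1, 148 kb away, at 0.768 and 1.49 (0.50). Both log2 differences were below the 1.72 of Ndufb9. The plain ratio of Tatdn1 was 2.60. A UMI of Tatdn1 was found in 34.5% of CM cells (interval 17.9 to 54.3) and 68.3% of TSF cells (59.9 to 76.0). These intervals lay apart, as for 1.14% of all genes tested with the higher share in TSF. Those of Mtss1 overlapped.

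**Figure D5:**
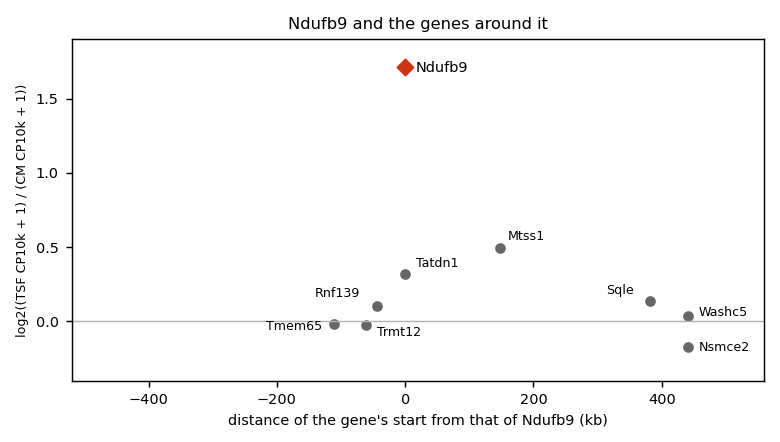
Log2 difference between TSF and CM (pseudocount of 1 CP10k) of Ndufb9 and the 8 tested genes starting within 500 kb, by distance of the gene's start in kb. Ndufb9 is at 1.72, and the next highest gene is Mtss1 at 0.50.

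The number of members called depended on the scale. Per 10000 UMIs outside ribosomal protein genes, 24 of the 46 members were higher and 42 lay above 0, beside 17 and 39 on the deposited scale, and the core median was 0.04. Of all genes, 8.12% were then higher and 45.1% above 0. After centring on the median of all genes, 19 were higher, against 6.22% of all genes, and the core median was 0.01. The direction of the core subunits as a group depended on the scale, while that of the accessory subunits did not under these scalings.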

How the data were processed

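Libraries were 10x Genomics 5' v1.1 single-cell libraries of whole lungs. The authors mapped reads with Cell Ranger to the mm10 build GRCm38.p6, to which the CD90.1 sequence had been joined, subtracted ambient RNA from the UMI counts with a modified SoupX, and worked in Seurat 4.1.0. The deposited cell table gives UMI counts per cell and the percent of mitochondrial UMIs. The deposited gene table gives, for the cancer cells of day 16, the mean CP10k and how many cells, as a number and as a percent, had a UMI, computed by the authors over all cells of 1 library, so that depth per cell is known but the spread between cells is not. Its columns of the authors' own comparison (fold change, p-value, q-value, ranking) and the table of enrichment scores were not used. The cell table holds 2 libraries that are not among the samples, and these were not used.

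Differences were computed with a pseudocount of 1 CP10k among genes seen in 10% or more of the cancer cells in CM or in TSF. Shares have exact Clopper-Pearson 95% intervals, and a floor of 3 counts where no cell had a UMI. Gene identifiers matched GENCODE M21 for 23729 of 23771 genes. Nduf genes, classes, arms and comparison lists were chosen with earlier results of these data known. Full values are given for Ndufb9, nuclear core subunits, Ndufaf genes and the 5 highest and 5 lowest members, and other genes named were members or in the lists. The values of 1 member are counted in the summaries but not reported here. Transcript length was looked at after seeing the data, first as the longest coding transcript and then as the APPRIS principal transcript, and both are reported. The implied level, the plain ratio and the sequences shown, with the motifs set in capitals, were also chosen after seeing the data. Scripts were tested on simulated data. Tables were handled in pandas 2.3.3 and numpy 2.4.6, intervals came from scipy 1.17.1, and plots were drawn with matplotlib 3.10.9, all under Python 3.11.15.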

Additional observations from a re-analysis of the deposited data

How the results depend on the processing

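With 1 library per group, no library could be left out, and no result has a replicate error. No paired analysis was possible because the groups compared share fewer than 2 replicate numbers. A pseudocount of 0.1 CP10k moved the median of all genes to -0.13 and gave 28 members higher and 2 lower, against 22.2% of all genes higher and 40.0% lower, with medians of 0.34 for members, 0.38 for accessory subunits and 0.33 for assembly factors. A limit of 0.5 gave 5 higher and 0 lower. The share of all genes past 0.5 was not computed, so these counts have no background. Any difference from 0 gave 39 and 7, and 40.3% of all genes lay above 0. Alternatives added after seeing the data were the level implied by the share of cells and the plain ratio. By the implied level 17 of 46 members were higher and 5 lower, with a median log2 difference of 0.070. Of 10055 genes with an implied level, 413 were higher and 991 lower by the same limit. The plain ratio had log2 medians of 0.39 for members, 0.40 for accessory subunits and 0.47 for assembly factors. Among members of at most 1000 bases 0 were lower, by either measure of length. Of all genes in that bin, 6.55% were lower by the longest coding transcript and 6.87% by the APPRIS principal transcript. The order of assembly factors and accessory subunits thus depended on the pseudocount, whose own construction compresses low levels. The remaining alternatives (detection minimum, scaling outside ribosomal protein genes, centring, leaving out Ndufb9 or Ndufa4 and Ndufa4l2) moved the medians by less than 0.1 and the counts of members by less than 1.5 times. The core median, -0.02 as reported, changed sign to 0.04 outside ribosomal protein genes and 0.01 after centring. Of single members, 25 moved by 0.1 or more at the lower pseudocount, 12 outside ribosomal protein genes and 0 after centring. Depth limits the low genes most, since 1 UMI in the shallowest CM cell is worth 0.354 CP10k of the CM mean and 0.0791 of the TSF mean.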
